A study of Mus musculus with 12 samples.

Results

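Stromal cells (SCs) of skin-draining peripheral lymph nodes (pLN) were compared between mice housed under specific pathogen-free (SPF) conditions and germ-free (GF) mice. The comparison rests on 6 of the 12 RNA-seq libraries of the series, chosen by the housing and node given in the library titles: pLN SPF 1 to 3 and pLN GF 1 to 3. The other 6 libraries are the same SCs from gut-draining mesenteric lymph nodes (mLN SPF 1 to 3 and mLN GF 1 to 3) and served for the spread and for 1 cross-check. All libraries came from BALB/c mice. The pLN were inguinal and axillary or popliteal nodes, and the sorted cells were CD45-CD24-CD31-Pdpn+ (gp38+), that is, non-haematopoietic and non-endothelial cells that carry podoplanin.

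The SPF mice carried the CD90.1 allele of Thy1 and were bred in ventilated cages at 1 institute. The GF mice were derived by caesarean section at another institute. They were kept in film isolators or micro-isolators, either there or at the institute that housed the SPF mice. By the study's account the age ranges of the young adult SPF and GF mice overlapped but were not the same, with that of SPF slightly older. Housing, colony, age, allele and any difference in BALB/c substrain therefore cannot be told apart in any value given here. The labels do not say whether a library is 1 animal or a pool, so the p-values measure the spread between these libraries, which may be technical. The source field of the labels calls the pLN a mesenteric node while the titles say pLN, and the titles were followed.

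Fibroblastic reticular cells (FRCs) and the CD34+ adventitial SCs of lymph nodes build the conduit network, lay down matrix and make the chemokines and survival factors that place and keep lymphocytes. They also carry receptors for systemic signals. Among these are glucocorticoids, adrenal steroids that bind the glucocorticoid receptor Nr3c1, which then enters the nucleus and raises or lowers the transcription of many genes. A GF mouse lacks live microbes in gut and on skin. The comparison asks how the transcriptome of skin-node SCs differs when the microbiota is present.

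Values are RPKM (reads per kilobase of exon, scaled to library size), as deposited by the authors, for 10253 genes, of which 9764 reached at least 1 RPKM in at least 3 of the 12 libraries and were tested. Depth in M (mega) reads, recovered from the step between low values, was 8.54, 8.70 and 12.3 M reads in pLN SPF 1, 2 and 3, against 11.2, 12.4 and 4.62 M reads in pLN GF 1, 2 and 3, so pLN GF 3 was the shallowest library of the series. Changes are SPF minus GF on the log2(RPKM + 1) scale with their standard error (SE) from limma, which understates the change of genes near or under 1 RPKM. A gene was called at a Benjamini-Hochberg adjusted p under 0.05 and at least a 2-fold change.

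The sorted population was recognisable in all 6 libraries. All 8 fibroblastic markers were expressed, with a summed level of 15261 to 15997 RPKM in SPF and 11031 to 14789 RPKM in GF. The sort-exclusion genes Cd24a and Pecam1 summed to 3.84 to 6.62 RPKM in SPF and 4.33 to 7.25 RPKM in GF. Cdh5, Lyve1 and Prox1, which define endothelium, were under 0.33 RPKM in every pLN library. The whole blood endothelial list of 12 summed to 349 to 573 RPKM in SPF and 327 to 423 RPKM in GF, nearly all of it from Ly6c1, Plvap and Tek. The lymphatic endothelial list of 8 summed to 3233 to 4579 RPKM in SPF and 5402 to 6985 RPKM in GF, nearly all of it from Ccl21a, which T zone FRCs also make. Of the 39 tested genes on 16 marker lists 0 were called by limma or by voom. An unadjusted p under 0.05 was found in 8 of them (2535 of all 9764 tested genes). Ddx3y, a Y-linked gene, was present at 10.7 to 16.1 RPKM in SPF and 11.4 to 11.6 RPKM in GF, although the study describes female mice unless stated otherwise.

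In pLN SCs 103 of 9764 genes were called (1.05%). 62 were higher (0.635%) and 41 lower (0.420%) in SPF, so 60.2% of the calls were higher. With the libraries rescaled by median of ratios, which moved the median change of all genes from −0.06 to 0.02, the split was 79 higher and 31 lower (71.8% higher). At an adjusted p under 0.05 with no fold limit, 395 genes were higher (4.05%) and 658 lower (6.74%). The 3 SPF and 3 GF libraries did not overlap in 102 of the 103 called genes, and they did not overlap in 27.2% of all tested genes. The exception, Agt (angiotensinogen), was chosen after its values were seen and lost its call without pLN SPF 1, pLN SPF 3, pLN GF 1 or pLN GF 3 (log2 change 0.78 to 1.07). 20 of the called genes averaged under 5 RPKM over the 6 libraries.

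**Figure D1:**
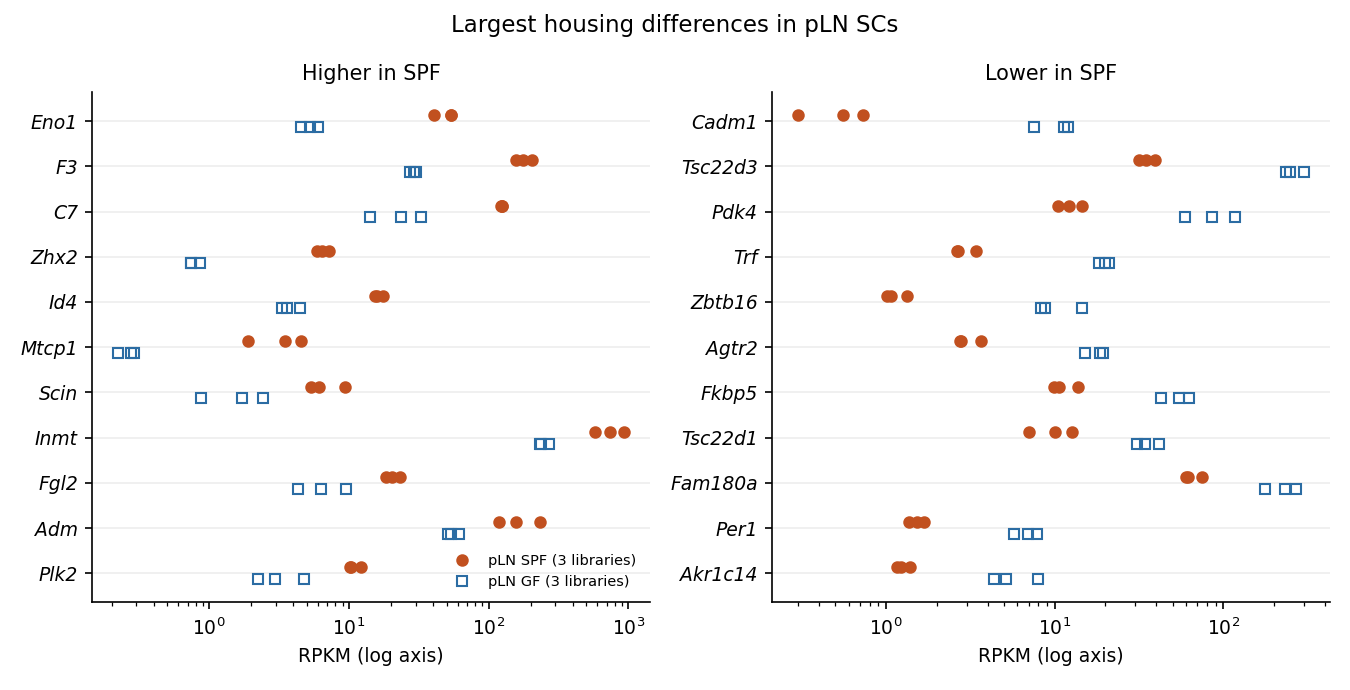
RPKM (log10 axis) of the genes with the largest changes in pLN SCs, 1 row per gene and 1 point per library, with the 3 pLN SPF libraries as filled circles just above the 3 pLN GF libraries as open squares. Left, genes higher in SPF. Right, genes lower in SPF. Genes were drawn only from called genes whose groups do not overlap, so the lack of overlap follows from that choice. For Tsc22d3 the SPF libraries lie at 31.8 to 39.4 RPKM and the GF libraries at 235 to 303 RPKM.

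The clearest group among the called genes was that of glucocorticoid targets, which were lower in SPF than in GF. Of 22 genes listed, 20 were tested. 8 of them fell and 1 rose in SPF (calls over all genes: 0.420% and 0.635%), and the median change of the list was −0.83, against −0.06 over all tested genes. In 14 of the 20 every SPF library lay under every GF library, as it did in 17.9% of all tested genes. The list has been seen to differ in these data before, so its count is a description and not independent evidence.

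Tsc22d3, which encodes the glucocorticoid-induced leucine zipper protein, had 31.8, 39.4 and 34.9 RPKM in SPF, against 303, 235 and 248 RPKM in GF. Every GF library was thus several times above every SPF library, a 7.41-fold difference of the means (log2 change −2.85 ± 0.13 SE, adjusted p = 2.48e-09). Fkbp5, a co-chaperone that lowers the hormone affinity of the glucocorticoid receptor, had 9.85, 10.6 and 13.7 RPKM in SPF, against 62.8, 54.5 and 42.7 RPKM in GF. It fell by 2.13 ± 0.20 (SE) on the log2 scale (adjusted p = 1.64e-05). Zbtb16, a zinc finger transcription factor, was close to the detection filter in SPF, at 1.07, 1.33 and 1.02 RPKM, against 8.26, 14.5 and 8.73 RPKM in GF. Per1, a repressor of the circadian clock, had 1.37, 1.53 and 1.68 RPKM in SPF, against 6.97, 5.70 and 7.86 RPKM in GF. Both fell (log2 changes −2.39 ± 0.25 and −1.63 ± 0.12 SE).

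The metabolic members moved the same way. Pdk4, the kinase that switches off pyruvate dehydrogenase, had 10.5, 14.5 and 12.1 RPKM in SPF, against 117, 59.2 and 86.0 RPKM in GF. The change was −2.68 ± 0.21 SE (adjusted p = 1.74e-06), with the GF libraries spread over a wider range than the SPF ones. Klf15, a transcription factor of amino acid and glucose metabolism, had 11.04, 9.34 and 11.2 RPKM in SPF, against 35.5, 23.2 and 27.6 RPKM in GF (−1.35 ± 0.15 SE). Ddit4, an inhibitor of the growth kinase complex mTORC1, had 2.63, 2.51 and 2.77 RPKM in SPF, against 9.02, 9.53 and 7.67 RPKM in GF (−1.42 ± 0.21 SE). Glul, glutamine synthetase, was the smallest of the 8, at 36.1, 24.8 and 27.5 RPKM in SPF, against 60.5, 52.1 and 66.5 RPKM in GF. Its change of −1.01 sat at the 2-fold limit, and 5 of 14 alternatives moved it inside (−0.99 to −0.89), among them the rescaling and leaving out pLN SPF 2, pLN SPF 3, pLN GF 1 or pLN GF 3.

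Just short of the limit, and so not called, was Angptl4, a secreted inhibitor of lipoprotein lipase, with 95.2, 79.7 and 96.7 RPKM in SPF, against 165, 200.4 and 180.1 RPKM in GF (log2 change −0.9999 ± 0.127 SE, adjusted p = 2.18e-04). Errfi1, Cdkn1a and Klf9 were under the adjusted p limit with smaller changes of −0.90, −0.77 and −0.74, as was Nfkbia with −0.37. The metallothioneins Mt1 and Mt2, metal-binding proteins, had changes of −0.56 and −0.54. Sgk1, Dusp1 and Zfp36 did not follow, with changes of 0.02, 0.00 and 0.10. The receptor gene Nr3c1 itself averaged 25.4 ± 2.12 RPKM in SPF and 22.5 ± 0.777 RPKM in GF (SD, n = 3 each; log2 change 0.16, adjusted p = 0.443).

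The 1 member that rose was Hsd11b1, the enzyme that turns inactive 11-keto steroids into active glucocorticoid inside the cell. It had 41.3, 19.6 and 26.9 RPKM in SPF, against 11.3, 13.1 and 13.2 RPKM in GF (log2 change 1.10 ± 0.20 SE, adjusted p = 0.00324). All SPF libraries were above all GF libraries, but pLN SPF 1 stood well above the other SPF libraries, and without it the change was 0.83 and the call was lost. The members that moved therefore include an enzyme of hormone activation, an inhibitor of the receptor complex and genes known as targets of the receptor, and the activating enzyme went the other way from the targets.

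**Figure D2:**
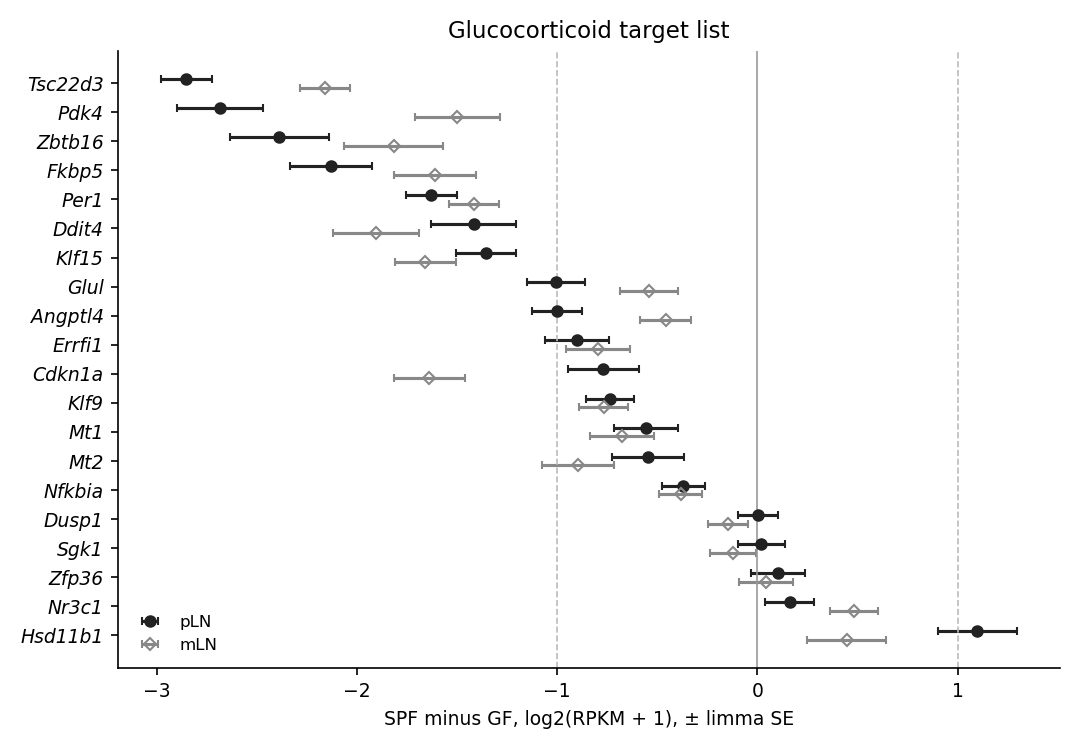
Change of each tested glucocorticoid-target gene (SPF minus GF, log2(RPKM + 1), x axis) in pLN SCs (filled circles) and mLN SCs (open diamonds), with bars of 1 limma SE (n = 3 libraries per group) and dashed lines at the 2-fold limit. The 8 pLN genes at or beyond the left line run from Tsc22d3 (−2.85) to Glul (−1.01), Dusp1, Sgk1 and Zfp36 lie near 0, and Hsd11b1 alone lies beyond the right line (1.10).

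The promoters of the glucocorticoid-list genes that fell are shown because these genes moved together. 7 of the 8 matched the reference, all but Zbtb16. Sequences run from 250 bases before to 50 bases after the annotated start and come from RefSeq on the GRCm38.p6 build. 8 motifs were searched on both strands, and every match is in capitals.
Tsc22d3, chrX:140542619-140542918, minus strand: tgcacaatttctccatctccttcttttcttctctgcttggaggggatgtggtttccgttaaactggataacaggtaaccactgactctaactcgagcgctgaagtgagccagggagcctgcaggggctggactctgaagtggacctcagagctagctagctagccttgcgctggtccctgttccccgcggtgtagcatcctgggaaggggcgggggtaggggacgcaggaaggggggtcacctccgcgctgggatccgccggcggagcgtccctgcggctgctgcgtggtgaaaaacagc
Fkbp5, chr17:28486100-28486399, minus strand: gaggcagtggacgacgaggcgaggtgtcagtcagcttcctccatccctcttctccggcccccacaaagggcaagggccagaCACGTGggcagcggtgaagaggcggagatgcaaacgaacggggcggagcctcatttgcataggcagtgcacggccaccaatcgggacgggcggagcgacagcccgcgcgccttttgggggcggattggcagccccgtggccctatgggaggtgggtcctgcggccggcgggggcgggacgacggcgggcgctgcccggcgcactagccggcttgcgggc
Per1, chr11:69098699-69098998, plus strand: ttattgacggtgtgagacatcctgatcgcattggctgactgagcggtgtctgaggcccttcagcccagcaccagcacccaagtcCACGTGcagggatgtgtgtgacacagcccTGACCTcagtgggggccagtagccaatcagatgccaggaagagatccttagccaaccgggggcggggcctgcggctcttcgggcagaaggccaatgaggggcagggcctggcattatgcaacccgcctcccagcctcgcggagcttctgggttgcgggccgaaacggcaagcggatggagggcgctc
Klf15, chr6:90462326-90462625, plus strand: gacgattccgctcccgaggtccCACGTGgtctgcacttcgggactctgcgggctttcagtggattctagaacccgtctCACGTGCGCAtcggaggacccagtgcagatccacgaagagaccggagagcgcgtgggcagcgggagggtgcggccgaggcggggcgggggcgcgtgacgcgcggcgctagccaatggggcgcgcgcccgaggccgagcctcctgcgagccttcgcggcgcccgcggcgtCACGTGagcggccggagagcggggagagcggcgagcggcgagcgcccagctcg
Pdk4, chr6:5496229-5496528, minus strand: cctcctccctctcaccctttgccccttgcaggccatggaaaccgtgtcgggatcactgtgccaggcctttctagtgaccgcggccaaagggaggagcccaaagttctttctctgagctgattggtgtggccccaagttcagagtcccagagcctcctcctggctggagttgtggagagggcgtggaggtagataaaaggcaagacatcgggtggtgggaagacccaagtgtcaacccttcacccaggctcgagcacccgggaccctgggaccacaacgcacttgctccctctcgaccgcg
Ddit4, chr10:59951721-59952020, minus strand: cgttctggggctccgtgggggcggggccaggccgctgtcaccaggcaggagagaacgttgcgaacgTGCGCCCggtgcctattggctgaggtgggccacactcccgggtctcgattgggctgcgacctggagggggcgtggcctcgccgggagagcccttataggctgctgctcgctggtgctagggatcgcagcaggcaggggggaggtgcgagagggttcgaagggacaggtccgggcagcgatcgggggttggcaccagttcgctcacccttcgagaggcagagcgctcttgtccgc
Glul, chr1:153899679-153899978, plus strand: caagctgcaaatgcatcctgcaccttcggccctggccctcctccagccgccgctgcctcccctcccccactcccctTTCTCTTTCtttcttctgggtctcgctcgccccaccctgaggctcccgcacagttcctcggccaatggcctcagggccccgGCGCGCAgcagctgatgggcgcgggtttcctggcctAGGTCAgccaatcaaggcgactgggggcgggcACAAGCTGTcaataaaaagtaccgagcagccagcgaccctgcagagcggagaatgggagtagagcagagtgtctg
Positions count from the annotated start. The E-box CACGTG, the core bound by the clock proteins CLOCK and BMAL1 among others, occurred at −169 in Fkbp5, at −166 in Per1 and at −228, −172 and −3 in Klf15, that is, in 3 of the 7 windows, and it was found in 7.24% of 27025 promoters. AGGTCA, an element bound by ROR receptors, was at −137 in Per1 on the opposite strand and at −57 in Glul (16.0% of promoters). The metal element TGCGCNC was at −184 in Ddit4 and −93 in Glul and overlapped an E-box of Klf15 at −169 (15.5%), and the interferon element GAAANNGAA was at −174 in Glul (8.57%). The Tsc22d3 window, the first of 3 the reference lists for this gene, and that of Pdk4 held no match to any of the 8 motifs. The Per1 window was the first of 2 listed. The core ACANNNTGT of the glucocorticoid element, added after the data had been seen, was in 1 of the 7 windows, at −25 in Glul, and in 6.9% of all promoters. Among the 73 called genes with a promoter in the reference, an E-box was in 5 of 31 that were lower and 3 of 42 that were higher in SPF. Tsc22d3 spans chrX:140539528-140600659, Fkbp5 chr17:28399094-28517527, Per1 chr11:69095217-69109960 and Klf15 chr6:90462576-90475238 on GRCm38, all protein coding. The windows of Tsc22d3, Fkbp5 and Per1 lie inside these spans, and the outer starts of the spans were not searched.

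On the log2(RPKM + 1) scale, clock genes other than Per1 moved less. Of 17 tested, Per1 alone was called by limma (0.420% of all tested genes were called lower) and 2 were called by voom. At the adjusted p alone 4 were lower (6.74% of all). Per2, like Per1 a repressor, averaged 0.674 ± 0.191 RPKM in SPF and 2.09 ± 0.444 RPKM in GF (SD, n = 3 each; log2 change −0.88, adjusted p = 0.00308), and Cry1 had a change of −0.45. At such low values the scale understates the change of Per2. Nr1d1, which encodes the repressor REV-ERB alpha, had a change of 0.65 in the opposite direction (adjusted p = 0.00926). The hour at which nodes were taken was not found in the labels or methods. Cirbp, a cold-inducible RNA-binding protein with a daily rhythm in several tissues, averaged 55.6 ± 3.49 RPKM in SPF and 27.9 ± 4.20 RPKM in GF (SD, n = 3 each), and its change of 0.98 stayed just short of the 2-fold limit (adjusted p = 1.80e-04). Of the 30 immediate early genes tested, which respond to tissue handling as well as to signals, 0 were called by limma and 1 by voom. An unadjusted p under 0.05 was found in 11 (2535 of all 9764 tested genes), and 7 were higher at the adjusted p alone (4.05% of all). Positive changes were found in 29 of these immediate early genes (3969 of all 9764), with a median of 0.26. Their part in the other results was not tested.

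Several other genes with known hormonal or metabolic roles were lower in SPF. Agtr2, the type 2 receptor for angiotensin II, had 2.79, 3.64 and 2.74 RPKM in SPF, against 19.5, 15.2 and 18.5 RPKM in GF (log2 change −2.21 ± 0.14 SE, adjusted p = 1.14e-07). Akr1c14, a hydroxysteroid dehydrogenase, had 1.23, 1.39 and 1.16 RPKM in SPF, against 4.34, 7.97 and 5.13 RPKM in GF. Both were far apart between the groups in every library. Tsc22d1, a paralogue of Tsc22d3, had 10.04, 7.01 and 12.7 RPKM in SPF, against 41.5, 31.0 and 34.4 RPKM in GF. Fam180a had 60.5, 74.3 and 61.7 RPKM in SPF, against 271, 176 and 234 RPKM in GF. They fell by 1.77 and 1.76 on the log2 scale. Stc2, a secreted glycoprotein that restrains IGF release, was the only called gene of 16 in the IGF list (0.420% of all tested genes were called lower). It had 14.3, 14.8 and 15.6 RPKM in SPF, against 50.6, 29.2 and 32.7 RPKM in GF (−1.24 ± 0.16 SE). Bcl6, a transcriptional repressor, was chosen after its values were seen and had 6.07, 3.73 and 5.87 RPKM in SPF, against 14.3, 12.996 and 10.9 RPKM in GF (−1.16 ± 0.20 SE). Without pLN SPF 2 its change was −0.97 and its call was lost.

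Cadm1 and Trf, also far lower in SPF, are not on the glucocorticoid list. Cadm1, an immunoglobulin-superfamily adhesion molecule (chr9:47530173-47857637), was nearly undetected in SPF, at 0.732, 0.552 and 0.299 RPKM, against 11.9, 7.55 and 11.3 RPKM in GF. The means differed 19.4-fold and the fitted change was −2.87 ± 0.16 SE (adjusted p = 1.79e-08). Trf, transferrin, the iron carrier of plasma, had 3.41, 2.67 and 2.62 RPKM in SPF, against 19.8, 18.4 and 20.9 RPKM in GF (−2.41 ± 0.11 SE, adjusted p = 3.37e-09). It was the only called gene of 17 in the iron and metal list (0.420% of all tested genes were called lower).

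Among the genes that were higher in SPF, coagulation genes led. F3, tissue factor, the membrane protein that starts the clotting cascade, had 205, 157 and 176 RPKM in SPF, against 30.2, 27.2 and 29.4 RPKM in GF. The means differed 6.19-fold, and on the log2(RPKM + 1) scale this was the second largest increase among genes with an established name (log2 change 2.58 ± 0.13 SE, adjusted p = 5.90e-09). Serpine2, an inhibitor of thrombin and of plasminogen activators, had 51.2, 41.7 and 41.6 RPKM in SPF, against 12.5, 19.8 and 14.9 RPKM in GF (1.47 ± 0.20 SE). Plau, urokinase, which activates plasminogen, had 132, 89.0 and 104 RPKM in SPF, against 35.9, 50.8 and 44.2 RPKM in GF (1.29 ± 0.15 SE). An initiator of clotting, a protease inhibitor and an activator of clot lysis were thus higher together. These were 3 of 16 tested members (0.635% of all tested genes were called higher), 7 members were higher at the adjusted p alone (4.05% of all), and the median change of the list was 0.18.

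Complement genes gave 2 calls of 14, both higher (0.635% of all tested genes). C7, a component of the membrane attack complex, had 122, 123 and 125 RPKM in SPF, against 14.1, 32.8 and 23.5 RPKM in GF (log2 change 2.42 ± 0.22 SE, adjusted p = 7.47e-06). The SPF libraries were nearly equal and the GF libraries varied. The list median was 0.15.

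Secreted growth regulators formed the next group. Fgf10 and Fgf7 are ligands of the epithelial FGF receptor and are made by mesenchyme. Fgf10 had 23.1, 21.5 and 18.7 RPKM in SPF, against 6.59, 8.71 and 6.24 RPKM in GF, and Fgf7 had 20.2, 17.5 and 15.5 RPKM in SPF, against 5.05, 6.54 and 6.62 RPKM in GF. Both rose by a similar amount (1.44 ± 0.14 and 1.41 ± 0.15 SE) with no overlap of the groups, and they were the 2 calls among 14 FGF and Sprouty genes (list median 0.12, 0.635% of all tested genes called higher).

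In the BMP list 3 of 21 genes rose and none fell, with a list median of 0.26 (0.635% of all tested genes called higher). Fst, follistatin, which binds activins and some BMPs, had 78.2, 55.9 and 65.2 RPKM in SPF, against 20.8, 28.3 and 24.5 RPKM in GF (1.40 ± 0.16 SE). Id4, a helix-loop-helix inhibitor and target of BMP signalling, had 15.8, 17.5 and 15.3 RPKM in SPF, against 4.47, 3.34 and 3.58 RPKM in GF (1.85 ± 0.17 SE). Id2, of the same family, had 50.2, 46.3 and 42.0 RPKM in SPF, against 19.3, 21.4 and 24.9 RPKM in GF. An antagonist and members of the target family were therefore higher in the same libraries. Id2 had a change of 1.05, and its call was lost without pLN SPF 1 (0.99) or without pLN GF 1 (0.97).

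In the WNT list 2 of 15 genes rose (list median 0.34, 0.635% of all tested genes called higher). Sfrp4, a secreted WNT-binding protein, had 50.05, 42.3 and 37.9 RPKM in SPF, against 9.29, 27.2 and 23.4 RPKM in GF. pLN GF 1 was the lowest library, and the change of 1.2004 became 0.75, with no call, without it. Wnt5a, a ligand of the non-canonical branch, had 11.2, 11.1 and 11.3 RPKM in SPF, against 5.60, 6.02 and 3.69 RPKM in GF. It had a change of 1.02, and of 0.84 and no call without pLN GF 3.

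Matrix genes rose in small number. Fbln1, a matrix glycoprotein, had 205, 181 and 202 RPKM in SPF, against 72.9, 99.0 and 72.1 RPKM in GF (1.27 ± 0.13 SE, adjusted p = 2.42e-05). Has1, a hyaluronan synthase that marks an SC subset in the study, had 108, 114 and 111 RPKM in SPF, against 25.2, 68.4 and 47.3 RPKM in GF (1.33 ± 0.24 SE), and 0.95 with no call without pLN GF 1. Podn, a small leucine-rich proteoglycan, had a change of 1.07, and its call was lost without pLN SPF 1, pLN GF 1 or pLN GF 3 (0.911 to 0.998). These were 3 of 49 non-collagen matrix genes (median 0.30), of which 14 were higher and 4 lower at the adjusted p alone. Over all tested genes 0.635% were called higher, and 4.05% were higher and 6.74% lower at the adjusted p alone. Col6a5 was the only called collagen of 24 (1.21 ± 0.21 SE). Among 26 matrix proteases and inhibitors the aggrecanase Adamts4 rose (1.21 ± 0.15 SE) and Adamts15 fell (−1.12 ± 0.20 SE), the second losing its call without pLN GF 1 (−0.997).

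**Figure D3:**
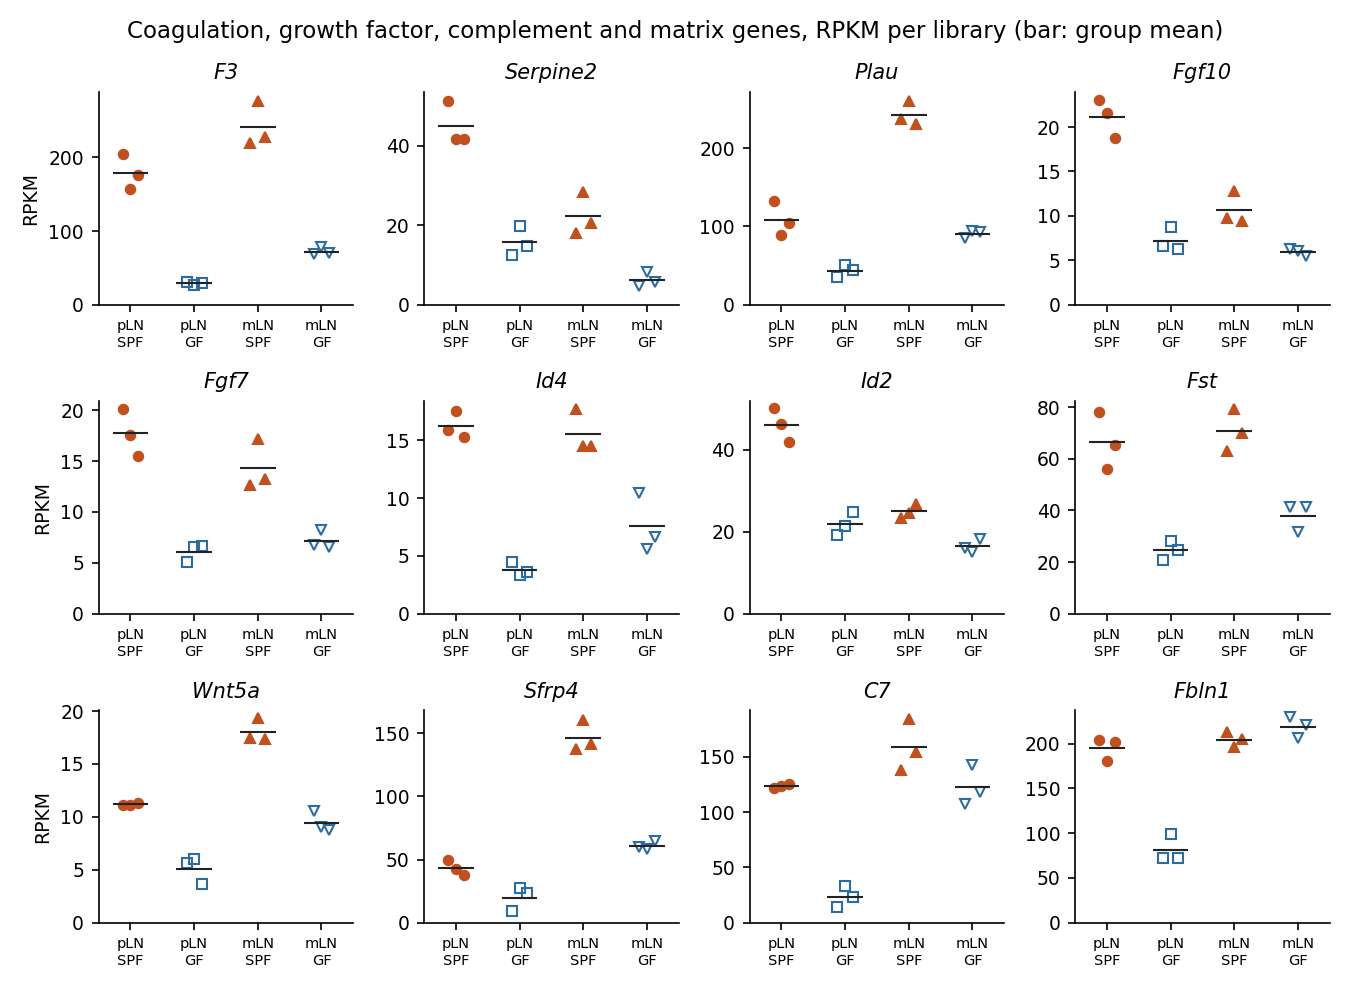
RPKM per library (linear axis, 1 panel per gene) of coagulation, growth factor, complement and matrix genes in pLN SPF, pLN GF, mLN SPF and mLN GF (n = 3 libraries each, bar at the mean). In pLN all SPF points exceed all GF points in every panel, and for C7 and Fbln1 the mLN groups lie closer to each other than the pLN groups.

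Of the remaining genes with large increases, Zhx2, a transcriptional repressor, stood out by how little of it was found in GF. It had 5.88, 6.46 and 7.15 RPKM in SPF, against 0.856, 0.743 and 0.738 RPKM in GF (8.35-fold between the means, log2 change 2.07 ± 0.11 SE, adjusted p = 1.30e-08). As background, the BALB/cJ substrain carries a retroviral insertion in Zhx2 that lowers its mature transcript, and the labels give the strain of all libraries as BALB/c with no substrain. Inmt, a methyltransferase that marks FRC subsets in the study, had 935, 579 and 741 RPKM in SPF, against 235, 237 and 269.6 RPKM in GF (1.58 ± 0.26 SE, adjusted p = 0.00148). Adm, adrenomedullin, a vasodilator peptide, had 232, 119 and 156 RPKM in SPF, against 61.6, 53.8 and 50.8 RPKM in GF (1.54 ± 0.20 SE). In each of these 3 genes every SPF library exceeded every GF library, which the rule that picked them required. Scin, an actin-severing protein, Fgl2, a fibrinogen-like protein, and Plk2, a stress-responsive kinase, rose by 1.58, 1.54 and 1.497. Scin had 9.41, 6.09 and 5.32 RPKM in SPF, against 0.873, 2.43 and 1.70 RPKM in GF. Fgl2 had 23.2, 20.4 and 18.5 RPKM in SPF, against 4.35, 9.46 and 6.33 RPKM in GF. Plk2 had 10.3, 12.1 and 10.2 RPKM in SPF, against 2.95, 4.73 and 2.24 RPKM in GF.

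Further lists gave a single call each, where 0.635% of all tested genes were called higher and 0.420% lower. Tbx18, a T-box transcription factor of mesenchyme, had 9.37, 10.5 and 8.26 RPKM in SPF, against 3.82, 3.501 and 2.83 RPKM in GF, and rose by 1.24 ± 0.15 (SE) as 1 of 15 node identity transcription factors. Scd1, the desaturase that makes monounsaturated fatty acids, had 9.89, 12.4 and 9.42 RPKM in SPF, against 2.79, 6.18 and 3.80 RPKM in GF, 1 of 17 lipid-handling genes (1.18 ± 0.23 SE). Gadd45g, a stress-induced brake of growth, had 238, 144 and 204 RPKM in SPF, against 75.7, 112 and 88.9 RPKM in GF, 1 of 16 cell-cycle brakes and p53 targets (1.06 ± 0.20 SE). The groups did not overlap in any of the 3. The call of Scd1 was lost without pLN GF 1 (0.97), and that of Gadd45g without pLN SPF 1 or pLN GF 1 (0.90 to 0.93).

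Other called genes were picked out after their values were seen, for their known roles. Gpx3, a secreted glutathione peroxidase and the most abundant called gene, had 1842, 1238 and 1546 RPKM in SPF, against 669.9, 843 and 766 RPKM in GF (1.01 ± 0.15 SE). Its call was lost with voom (0.98) and without pLN SPF 1, pLN SPF 3 or pLN GF 1 (0.870 to 0.996). Socs1, an inhibitor of cytokine signalling, had 71.0, 46.6 and 58.0 RPKM in SPF, against 23.3, 28.5 and 20.2 RPKM in GF (1.24 ± 0.19 SE). Both were higher in SPF in every library. On the lower side, Wee1, a kinase that brakes entry into mitosis, had 3.40, 3.97 and 2.34 RPKM in SPF, against 9.97, 8.08 and 8.06 RPKM in GF (−1.21 ± 0.18 SE). Prr5, a subunit of the growth kinase complex mTORC2, had 4.95, 5.60 and 4.604 RPKM in SPF, against 13.3, 15.7 and 11.9 RPKM in GF (−1.27 ± 0.12 SE). Mertk, a receptor for the clearance of dying cells, had 1.67, 1.201 and 1.18 RPKM in SPF, against 5.03, 4.73 and 3.79 RPKM in GF (−1.23 ± 0.17 SE). Fam107a, an actin-associated protein, had 0.934, 0.733 and 0.583 RPKM in SPF, against 4.47, 3.98 and 3.77 RPKM in GF (−1.54 ± 0.12 SE). All 4 were lower in SPF in every library.

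Eno1, the glycolytic enzyme enolase, had 53.9, 40.9 and 53.6 RPKM in SPF, against 6.03, 5.30 and 4.55 RPKM in GF, the largest increase on the same scale among genes with an established name (2.9996 ± 0.13 SE). Mtcp1 had 4.56, 1.89 and 3.46 RPKM in SPF, against 0.276, 0.291 and 0.221 RPKM in GF (1.72 ± 0.22 SE). Both values are uncertain. They are among 6 of the 9764 tested genes whose RPKM do not resolve into whole reads at a single step, and near-identical copies or overlapping gene models can share their reads. 3 called genes have clone or predicted names and were picked out after their values were seen, with changes of 3.34 (G530011O06Rik), −2.68 (Gm12505) and −1.29 (1810011O10Rik).

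Immune programmes of SCs were examined as lists. By limma, 0 of 34 interferon response genes, 0 of 8 lymphoid chemokines, 0 of 19 NF-kB genes and 0 of 18 antigen presentation genes were called, where 1.05% of all tested genes were, so that counts of 0 in lists of this size are near the background. At an unadjusted p under 0.05 stood 11, 3, 7 and 2 of them, where 2535 of all 9764 tested genes did. Voom called 1, 0, 0 and 0, and 171 over all genes. Ccl21a, the T zone chemokine and the most abundant of the lymphoid chemokines, had 4552, 3211 and 4184 RPKM in SPF, against 6962, 5384 and 6829 RPKM in GF, a change of −0.69 that did not pass (adjusted p = 0.176). Of 21 microbial sensing genes 1 rose, Lbp, which presents bacterial lipopolysaccharide to CD14. It had 39.9, 26.9 and 31.5 RPKM in SPF, against 11.4, 19.8 and 15.6 RPKM in GF (1.04 ± 0.17 SE), and lost its call without pLN SPF 1 (0.89) or pLN GF 1 (0.84). Heat shock genes (0 of 29), unfolded protein response genes (0 of 25), cholesterol genes (0 of 26) and cell cycle genes (0 of 13) also gave no call by limma, with 8, 4, 8 and 3 genes at an unadjusted p under 0.05 and 0, 0, 3 and 0 calls by voom. At limma's adjusted p alone, 6 of the cholesterol genes were higher and 0 lower (4.05% and 6.74% of all tested genes). By the same measure 1, 0 and 0 of the heat shock, unfolded protein response and cell cycle genes were higher, and 3, 4 and 0 lower.

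Of 30 genes listed for SC subsets and their regulators, most are named in the study (Irf7 and Thy1 are among those its text does not name). Of these, 26 were tested and Inmt alone was called, where 1.05% of all tested genes were. Ccl20 was under the filter on low values, and Irf5, Sfrp5 and Gdf6 were not analysed here. Ccl19, the chemokine of T zone FRCs, had 1111, 863 and 1069 RPKM in SPF, against 1706, 1210 and 1752 RPKM in GF, a change of −0.61 that did not pass (adjusted p = 0.163). Cxcl13, the B cell zone chemokine, had a change of −0.30 and Cxcl9 of −0.56, neither past the adjusted p limit. Cd248, a surface marker of CD34+ SCs, averaged 256 ± 80.0 RPKM in SPF and 141 ± 63.1 RPKM in GF (SD, n = 3 each), a change of 0.90 with overlapping groups (adjusted p = 0.0413). Irf1, an interferon-induced transcription factor, averaged 208 ± 11.2 RPKM in SPF and 127 ± 27.2 RPKM in GF (SD, n = 3 each; 0.73, adjusted p = 0.00470). Il6 and Cd34 had changes of 0.83 and 0.53 and did not pass the adjusted p limit. The other 18 tested had changes between −0.37 (Meis1) and 0.50 (Gdf10) and did not pass either, among them Il7, Cxcl1, Cxcl12, Ackr3, Aldh1a2, Ptgis, Nr4a1, Nkx2-3, Meis2, Tcf4, Foxn2, Irf3, Irf7, Pdpn and Thy1.

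Bulk values cannot tell fewer cells of a subset from less RNA per cell. Of the 4 lists of subset markers, 2 had a single call each, Has1 (1.33) and Inmt (1.58), where 0.635% of all tested genes were called higher. The lists' medians lay between −0.15 and 0.43. The 17 tested markers of the CD34+ Cd248 and Ackr3 subset had a median change of 0.43 with 15 positive. Their summed level was 3745, 2620 and 3091 RPKM in SPF, against 1617, 3163 and 2523 RPKM in GF, so that the groups overlapped and pLN GF 1 was lowest. The 18 T zone FRC markers had a median change of −0.15 with 14 negative, and their sum was 14745, 13054 and 14473 RPKM in SPF, against 18684, 16151 and 18961 RPKM in GF. These sums did not overlap between the groups. A large part of them was Ccl21a and Ccl19, whose own changes did not pass the adjusted p limit. None of the 18 was called by limma or voom, and 3 were lower at the adjusted p alone (6.74% of all tested genes). An unadjusted p under 0.05 was found in 7 (2535 of all 9764 tested genes). The 10 markers of the Inmt FRC subset had a median change of 0.27 and summed to 9996, 10009 and 10204 RPKM in SPF, against 9965, 8678 and 8752 RPKM in GF. Apoe, which is on this list, alone had 7343 RPKM in pLN GF 1, so the sum mainly follows that gene there. The 13 markers of the CD34+ Aldh1a2 and Gdf10 subset had a median change of 0.25, and 3 were higher at the adjusted p alone (4.05% of all tested genes). Their sum was 8270, 7887 and 7719 RPKM in SPF, against 5592, 6491 and 6581 RPKM in GF, with no overlap of the groups. This list shares Dcn with the general fibroblastic markers, so its sum is not particular to the subset. Perivascular markers (10 of 12 tested) summed to 553 to 606 RPKM in SPF and 581 to 793 RPKM in GF. The part of subset composition in the called genes was not tested.

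Ribosomal protein genes showed a small and broad difference. Only 2 of 82 were called, Rpl39 and Rpl36a, where 0.420% of all tested genes were called lower. Of the 82, 81 had negative changes (5795 of all 9764), and 56 were lower in SPF at the adjusted p alone (6.74% of all). Their median change was −0.62 (−0.54 after rescaling), against −0.06 over all tested genes. Summed over the list, the level was 8108, 5669 and 7154 RPKM in SPF, against 9741, 10017 and 12589 RPKM in GF. The extremes were pLN SPF 2 and pLN GF 3, and the count of 56 dropped to 18 without pLN SPF 2, to 26 without pLN SPF 3, to 6 without pLN GF 3 and to 34 after rescaling. Rps4l was the exception with a positive change of 0.78. Nuclear-encoded respiratory chain genes had a median change of −0.40, with 0 of 75 called by limma or voom. Of these 75, 48 had an unadjusted p under 0.05 (2535 of all 9764 tested genes). At the adjusted p alone 19 were lower (6.74% of all).

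Rpl39 had 61.8, 49.9 and 50.7 RPKM in SPF, against 88.0, 97.3 and 162 RPKM in GF (log2 change −1.04 ± 0.22 SE), and Rpl36a had a change of −1.01 ± 0.18 SE. The call of each was lost without pLN GF 3, without pLN SPF 2 and after rescaling, and that of Rpl39 also without pLN SPF 3. Both families have short transcripts and many pseudogene copies, which leaves single values uncertain. Other tested genes with an exon length under 1000 bases (n = 112) had a median change of −0.40, those of 1000 to 2000 bases −0.14, those of 2000 to 4000 bases −0.06 and longer ones −0.03. Ribosomal protein genes of 4000 bases or more (n = 6) had a median change of −0.64. The bins are of annotated exon length, in which only 13 of the 82 ribosomal protein genes lay under 1000 bases. They do not give the length of the transcripts present. The parts of transcript length and of library depth in the ribosomal difference were not tested.

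**Figure D4:**
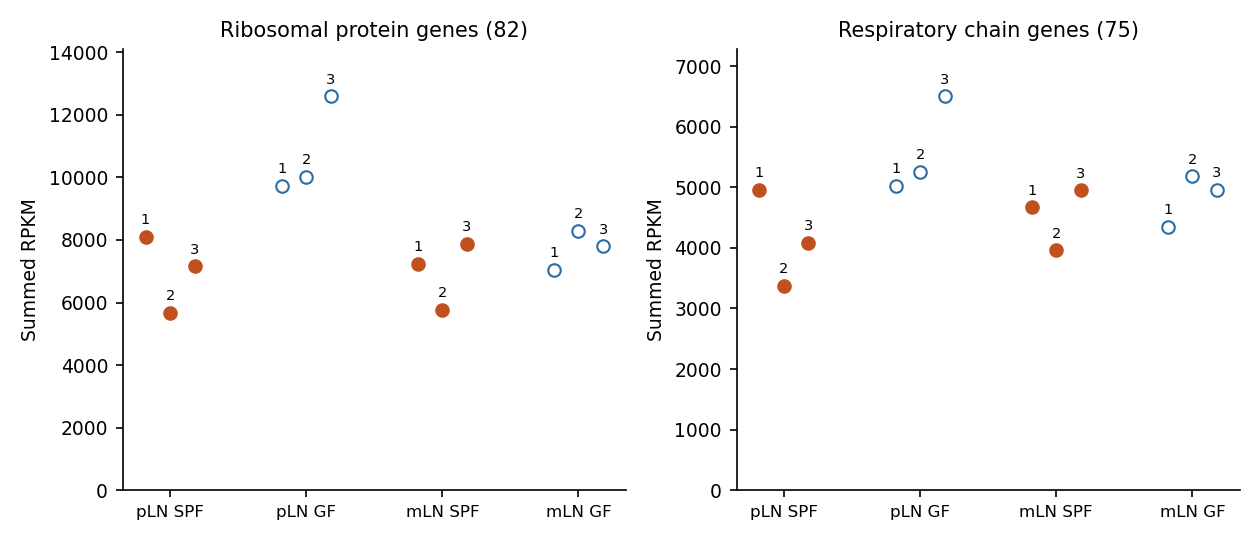
Summed RPKM of 82 ribosomal protein genes (left) and 75 respiratory chain genes (right) per library, numbered by replicate, in pLN SPF, pLN GF, mLN SPF and mLN GF (n = 3 each). The ribosomal sum is 5669 to 8108 RPKM in pLN SPF and 9741 to 12589 RPKM in pLN GF, highest in pLN GF 3, the shallowest library, while the mLN groups overlap.

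By chromosome, the share of tested genes that were called ran from 0% on chromosome 18 to 2.39% on chromosome X. The region within 10 Mb of Thy1 on chromosome 9 was examined because the SPF mice carry another Thy1 allele. It held 91 tested genes, of which 4 were called (4.40%): Oaf, Cadm1, Zbtb16 and Arhgap20. The share was 1.62% on chromosome 9 and 1.05% over all tested genes. Oaf had a change of 1.25 and Arhgap20 of 1.09, the first missing the adjusted p limit without pLN GF 3 (change 1.11, still beyond 2-fold) and the second losing its call without pLN GF 1 (0.92). Thy1 itself had 6.74, 4.66 and 4.30 RPKM in pLN SPF, against 3.75, 8.04 and 5.39 RPKM in pLN GF, with overlapping groups and a change of −0.08. In mLN its change was −1.56 (limma adjusted p = 9.75e-04). Linkage to Thy1 and housing cannot be told apart for these genes.

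The same contrast in mLN SCs used other libraries, although whether the same animals gave both nodes is not stated in the sources used here. It called 73 genes (0.748%), 26 higher and 47 lower in SPF. 28 genes were called in both nodes, all in the same direction, 13 higher and 15 lower, which is 27.2% of the pLN calls and 38.4% of the mLN calls. Of the 103 genes called in pLN, 92 had the same sign in mLN. The share with the same sign was not counted over all tested genes, so the 92 has no background beside it. The mLN contrast carries the same differences of colony, age and allele as the pLN contrast. The genes called in both include Tsc22d3 (mLN change −2.16), Zbtb16 (−1.82), Klf15 (−1.66), Fkbp5 (−1.61), Pdk4 (−1.50), Per1 (−1.41) and Ddit4 (−1.90) among the lower ones. Wee1 and Agtr2 were lower in both as well (mLN −1.83 and −1.78). Among the higher ones were Zhx2 (2.66), F3 (1.72), Serpine2 (1.70), Plau (1.41), Sfrp4 (1.25) and Socs1 (1.10). Of the glucocorticoid list, 8 genes were called lower in mLN (list median −0.78), where 47 of all 9764 tested genes were. These were not the same 8 as in pLN, since Glul was not called in mLN (−0.54).

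The test of the difference between the nodes (the interaction, pLN change minus mLN change) called 23 genes (0.236%), 13 positive and 10 negative. The 2 nodes are treated as independent there, although same-numbered pLN and mLN libraries deviated together in SPF (correlations 0.182 to 0.456) and less in GF (0.079 to 0.228). With these libraries as pairs within each housing, a fit added after the data were seen, 43 genes were called, among them all 23. None of the 28 genes called in both nodes was among the 23, at an adjusted p under 0.05 and 2-fold by limma. 11 of the 23 had been called in pLN. Cadm1 had 11.9, 7.55 and 11.3 RPKM in pLN GF, but in mLN it had 0.297, 0.173 and 0.142 RPKM in SPF, against 0.973, 0.599 and 0.753 RPKM in GF (interaction −2.31 ± 0.22 SE, adjusted p = 7.04e-05). The GF level of Cadm1 was thus high in skin-draining nodes and low in gut-draining nodes. C7 had 138, 184 and 154 RPKM in mLN SPF, against 107, 143 and 118 RPKM in mLN GF, so the mLN groups overlapped while the pLN groups were far apart (2.06 ± 0.31 SE, adjusted p = 0.00700). Trf had 12.04, 11.1 and 12.6 RPKM in mLN SPF, against 18.2, 19.3 and 17.5 RPKM in mLN GF (−1.83 ± 0.16 SE). Fbln1 differed as well (1.37 ± 0.18 SE, adjusted p = 0.00223), with 213, 196 and 205 RPKM in mLN SPF, against 229.7, 206 and 221 RPKM in mLN GF.

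**Figure D5:**
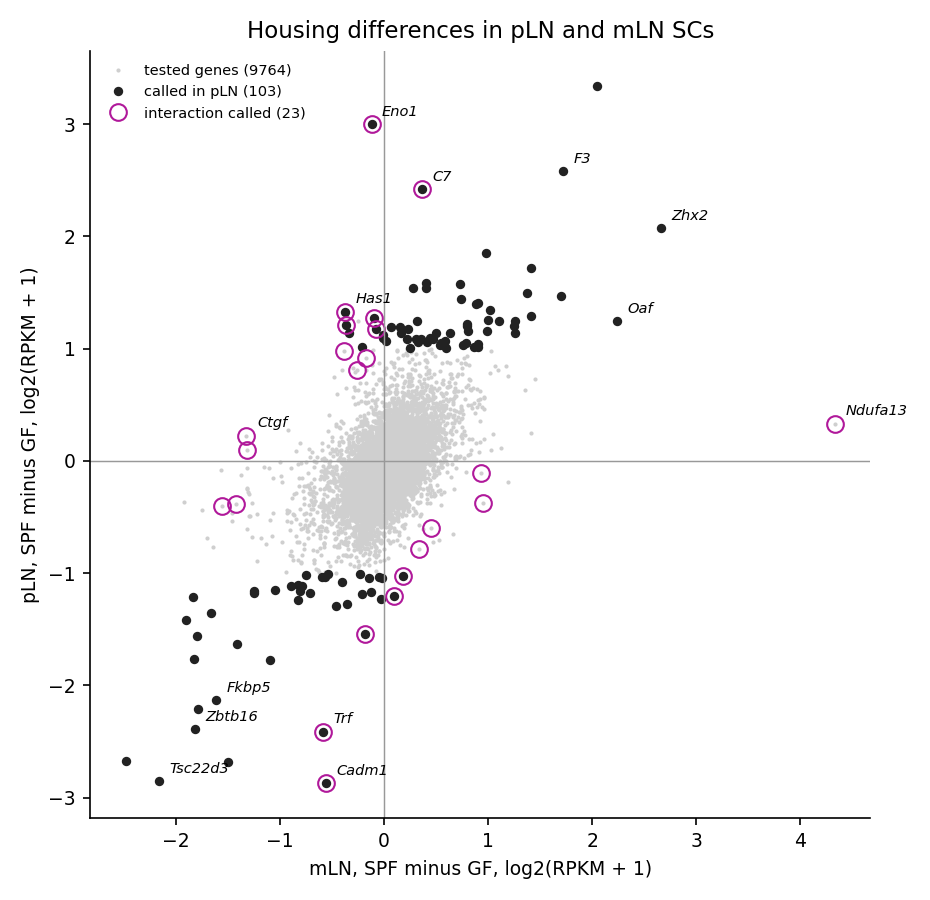
Change in mLN SCs (x axis) against change in pLN SCs (y axis), both SPF minus GF in log2(RPKM + 1), 1 point per tested gene, with the 103 genes called in pLN in black and the 23 interaction genes ringed. Tsc22d3, Zbtb16 and Fkbp5 lie low on both axes and F3 and Zhx2 high on both, whereas Cadm1, Trf, C7 and Eno1 lie far from 0 on the pLN axis and nearer to it on the mLN axis.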

How the data were processed

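RNA-seq of sorted SCs was deposited as 1 table of 12 libraries in 4 groups of 3. Per the labels and the study's methods, the authors made cDNA with SMART-Seq v4 and libraries with Nextera XT, sequenced 50 bp single reads on a HiSeq2500, aligned them with TopHat2 (1.2.0) to GRCm38/mm10, counted with HTSeq (0.12.4) and deposited RPKM computed from those counts. The kit does not mark strand, so overlapping and antisense genes cannot be told apart. The table also holds 8 columns of the authors' own DESeq2 comparisons (log2 fold changes and adjusted p-values), which were not used. 18 gene symbols had been turned into dates and were not named.

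Genes of at least 1 RPKM in at least 3 of 12 libraries were tested with limma (3.58.1, R 4.3.3) on log2(RPKM + 1), in a single model that held the 12 libraries as 4 groups. The fit had 8 residual degrees of freedom, or 15.1 after moderation. The p-values were two-sided and adjusted over all 9764 tested genes. An exact permutation of 3 against 3 libraries cannot go below p = 0.1 and was not used. Because RPKM in place of counts were deposited, limma replaced a count test. Whole reads were recovered for 99.9% of tested genes (tolerance 1e-12), and limma's voom on them was an alternative. The scripts were tested on simulated data. Positions came from GENCODE M21 on GRCm38 (9473 of 9764 tested genes matched, 99 of the called genes) and promoters from RefSeq.

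The genes named were the 12 largest changes in each direction among called genes whose libraries do not overlap, up to 4 called genes per list, the genes the study names, and up to 8 called genes of the interaction. Klf15, Ddit4, Glul, Hsd11b1, Agt, Bcl6, Wee1, Prr5, Mertk, Gpx3, Socs1, Fam107a, the 3 clone or predicted names and the uncalled genes given with values were named after their values had been seen. A few genes that met this rule are not reported here. The comparison, the members and the 42 gene lists were chosen with earlier results of these data known. Alternatives were another pseudocount, other filters, rescaling by median of ratios, the 6 pLN libraries alone, a replicate block (also within each housing, added after the data were seen), other limma settings, voom and leaving out each library. Python 3.11.15, NumPy 2.4.6, pandas 2.3.3 and matplotlib 3.10.9 were used.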

Additional observations from a re-analysis of the deposited data

Results flagged for a closer look

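Genes were picked out here because the housing effect differed between pLN and mLN SCs by the interaction test of limma (pLN change minus mLN change, adjusted p under 0.05 and at least 2-fold). 23 genes passed, and the values below are log2 differences of 10 of them, SPF minus GF in each node.

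Ndufa13, a respiratory chain subunit, had the largest interaction (−4.00). It had 2.12, 1.85 and 0.9999 RPKM in pLN SPF, against 2.18, 0.626 and 0.715 RPKM in pLN GF, and 67.1, 49.1 and 69.2 RPKM in mLN SPF, against 1.41, 2.72 and 2.27 RPKM in mLN GF. Eno1 had an interaction of 3.12, with 5.98 to 7.197 RPKM in mLN SPF, against 6.599 to 7.67 RPKM in mLN GF, and its difference was found in pLN. Neither gene's RPKM resolved into whole reads, and the cause was not tested.

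Cadm1 (−2.31), C7 (2.06), Trf (−1.83) and Fbln1 (1.37) had larger changes in pLN than in mLN. Fam107a had an interaction of −1.35, but in mLN it lay near 0, at 0, 0 and 0.0507 RPKM in SPF, against 0.303, 0.0685 and 0.108 RPKM in GF, where a pseudocount of 1 holds any change near 0. Its changes in the 2 nodes are therefore not comparable as folds. Has1 (1.70) and Col6a5 (1.58) were called in 4 and 5 of 15 alternatives. Ctgf, a matricellular protein also known as CCN2, had an interaction of 1.54, with changes of 0.22 in pLN and −1.32 in mLN.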

How the results depend on the processing

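The count of 103 calls (62 higher, 41 lower) became 172 (108 and 64) with a pseudocount of 0.1 and 171 (99 and 72) with voom, in which 101 and 99 of the 103 were shared. Leaving out 1 pLN library gave 94 to 142 calls, 48 to 92 higher and 39 to 58 lower. Without pLN GF 1, 76 of the 103 remained, and without pLN SPF 1, 81 remained. The 23 interaction calls became 13 to 38 when 1 of 12 libraries was left out (38 without pLN GF 2, 15 without mLN SPF 3, 13 without mLN GF 3). The 56 ribosomal genes lower at the adjusted p alone became 34 after rescaling and 6 to 69 when 1 pLN library was left out. The causes were not tested. The glucocorticoid genes called lower numbered 7 to 9 under all alternatives run. Of the 60 called genes with values in the text, 42 were called under every alternative that could be run, 18 lost the call under at least 1 and 0 changed sign.

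Genes that were not called and changed sign were Thy1 (−0.31 to 0.16 when 1 pLN library was left out), Sgk1 (−0.013 with voom, −0.018 to 0.072 when 1 was left out) and Dusp1 (−0.029 with voom, −0.031 to 0.055 when 1 was left out). With a replicate block the count stayed at 103 (62 higher, 41 lower) and the interaction gave 27. With a replicate block within each housing, added after the data were seen, the interaction gave 43, all 23 among them. The numbers do not pair pLN SPF with pLN GF, since the deviations of same-numbered libraries correlated at −0.333, −0.216 and −0.063. Same-numbered pLN and mLN libraries correlated at 0.182 to 0.456 in SPF and 0.079 to 0.228 in GF, and not every library correlated best with its own number. Depth limits pLN GF 3 most, and 20 called genes averaged under 5 RPKM.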
